A study of Homo sapiens with 6 samples.

Results

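S100 genes encode small calcium-binding proteins, and 10 of them were taken as a group (S100A2, S100A3, S100A4, S100A6, S100A8, S100A9, S100A10, S100A11, S100A13 and S100A16), chosen by gene symbol and not by their values. Rows for 8 of the 10 were used, out of 16258 genes, and S100A8 and S100A9 were not analysed here. The cells were MDA-MB-231, an established human line from a triple-negative breast cancer with a spindle shape and high motility, and every sample came from this line, with no genetic change or drug named for either group. Migratory cells were those isolated as highly motile from microfluidic devices (3 samples), and unsorted cells were the population from which they came (3 samples), each sample holding 1000 cells. The time that unsorted cells spent in a device is not given, and handling in the device and motility cannot be told apart. Nothing in the labels ties the samples of a group to different cultures, and the p-values therefore describe sample-to-sample spread that may be purely technical.

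S100 proteins pair into dimers, and each subunit folds around a pair of EF-hand loops, of which at least one usually binds calcium. Binding opens a surface that grips partner proteins such as annexins, myosin heavy chains and p53, and some family members also act outside the cell on receptors such as RAGE and TLR4. Most of their genes lie in a cluster on the long arm of chromosome 1, and several, S100A4 above all, are known for their link to the spread of breast tumours.

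Of the members, S100A3 differed most between the groups and S100A16 was the other one whose groups were separate, so the start regions of both are shown, with that of S100A4, whose annotated interval encloses S100A3, and that of S100P, the relative outside the group with the largest difference. Each sequence gives the 250 bases upstream of a RefSeq transcript start (GRCh38.p14), read 5′ to 3′ on the strand of the gene. S100A3 (chr1:153549259-153549508), S100A4 (chr1:153545807-153546056) and S100A16 (chr1:153613138-153613387 for its outer and chr1:153609356-153609605 for its inner start) lie on the minus strand, and S100P (chr4:6693628-6693877) lies on the plus strand. Capitals mark matches on either strand to TATAAA (the TATA box), TGANTCA (the AP-1 site) and GGGCGG (the GC box), which do not overlap each other here.
S100A3: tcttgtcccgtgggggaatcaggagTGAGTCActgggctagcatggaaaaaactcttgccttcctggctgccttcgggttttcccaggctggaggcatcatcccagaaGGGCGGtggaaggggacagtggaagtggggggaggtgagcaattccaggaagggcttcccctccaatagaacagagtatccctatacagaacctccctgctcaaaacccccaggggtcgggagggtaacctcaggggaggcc
S100A4: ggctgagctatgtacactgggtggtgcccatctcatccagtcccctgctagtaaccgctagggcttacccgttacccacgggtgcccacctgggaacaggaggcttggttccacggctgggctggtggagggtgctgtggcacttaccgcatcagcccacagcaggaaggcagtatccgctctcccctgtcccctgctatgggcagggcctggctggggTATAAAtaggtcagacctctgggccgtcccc
S100A16 outer: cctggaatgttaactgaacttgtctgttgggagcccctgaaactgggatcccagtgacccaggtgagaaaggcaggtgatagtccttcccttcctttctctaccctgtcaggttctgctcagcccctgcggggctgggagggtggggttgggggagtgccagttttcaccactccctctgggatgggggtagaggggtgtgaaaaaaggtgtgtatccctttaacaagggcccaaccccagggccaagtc
S100A16 inner: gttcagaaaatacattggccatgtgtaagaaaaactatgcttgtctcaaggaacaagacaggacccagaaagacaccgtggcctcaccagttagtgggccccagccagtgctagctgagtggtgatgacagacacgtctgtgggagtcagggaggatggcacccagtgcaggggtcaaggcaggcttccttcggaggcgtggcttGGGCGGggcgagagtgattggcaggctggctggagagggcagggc
S100P: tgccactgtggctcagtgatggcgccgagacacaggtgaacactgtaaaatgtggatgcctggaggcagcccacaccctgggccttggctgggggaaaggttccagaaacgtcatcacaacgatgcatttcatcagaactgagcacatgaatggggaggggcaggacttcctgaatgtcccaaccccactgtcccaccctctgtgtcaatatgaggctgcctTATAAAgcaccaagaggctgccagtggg
The S100A3 window held a TGANTCA match that began 225 bases before the start and a GGGCGG match at 142 bases, and no TATAAA. S100A4 and S100P each held TATAAA, at 31 and 28 bases. No match was found at the outer start of S100A16, and GGGCGG was found 45 bases before its inner start. In the other windows examined, TGANTCA was also found before one of the starts of S100A2 (52 bases) and one of those of S100A5 (17 bases). GGGCGG was found there before S100A6 (90, 79 and 75 bases), S100A10 (167 bases), S100A11 (68 bases) and one start of S100A13 (138 bases). TATAAA was found before another start of S100A13 (29 bases). Over 35116 RefSeq windows of the same length, TATAAA was present in 10.7%, TGANTCA in 6.57% and GGGCGG in 42.6%. These matches describe letters only, and none was tested as a site.

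The values are normalised read counts, that is, reads per gene divided by a size factor for each library, with no scaling for gene length. Libraries held 27032454 to 34511537 reads in migratory and 32789072 to 74227978 reads in unsorted cells. The amplified reads carried no molecular identifiers, so intervals on shares cover counting error only. VIM, CD44, KRT8, KRT18 and AXL, markers of the line, averaged 18533, 23109, 41581, 42043 and 21313 in migratory and 14465, 20267, 58466, 52093 and 13427 in unsorted cells, while rows for ESR1 and PGR were not used here and ERBB2 averaged 1095 and 1029. Migratory replicate 1 stood apart from the other migratory libraries in its share of reads from cytosolic ribosomal protein genes, which was 2.58%, against 1.75% and 1.85%, with 1.40% to 1.71% in unsorted cells.

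S100 transcripts were among the most abundant of the cells. Per kilobase of exon (GENCODE release 29 on GRCh38, which also gives the gene intervals), S100A6 averaged 87657 ± 30251 normalised reads in migratory and 77752 ± 12368 in unsorted cells (SD, n = 3 each), which gave it rank 7 among 13962 genes with a known length, and rank 6 to 10 in any library. S100A6, also called calcyclin, takes its second name from the cell cycle. S100A11 followed at 60058 ± 16497 reads per kilobase in migratory and 45605 ± 3770 in unsorted cells (rank 12 overall). S100A4 had 49280 ± 13245 and 52299 ± 7536 reads per kilobase in migratory and unsorted cells (rank 14). S100A10 had 41390 ± 9634 and 38673 ± 4937 (rank 19), and S100A16 had 18297 ± 1514 and 14196 ± 969 (rank 65). The remaining members were lower per kilobase, with rank 301 for S100A2, rank 371 for S100A3 and rank 3039 for S100A13. S100A3 had rank 622 by its mean in migratory cells and rank 266 by its mean in unsorted cells.

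The order of levels per kilobase was stable for most neighbours. S100A6 exceeded S100A11 in 6 of 6 libraries, S100A4 exceeded S100A10 in 6, S100A10 exceeded S100A16 in 6 and S100A16 exceeded S100A2 in 6. S100A11 exceeded S100A4 in 3 of 6 libraries, which were the migratory ones, and lay below it in every unsorted library. S100A2 exceeded S100A3 in 4 of 6, which were every migratory library and unsorted replicate 3. Neither pair thus kept its order over all libraries, and the change of order between the groups was not tested. S100A5, a relative outside the group whose gene lies between S100A6 and S100A4, stood at 676 ± 198 reads per kilobase in migratory and 829 ± 74.2 in unsorted cells. It exceeded S100A13 in 5 of 6 libraries.

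**Figure D1:**
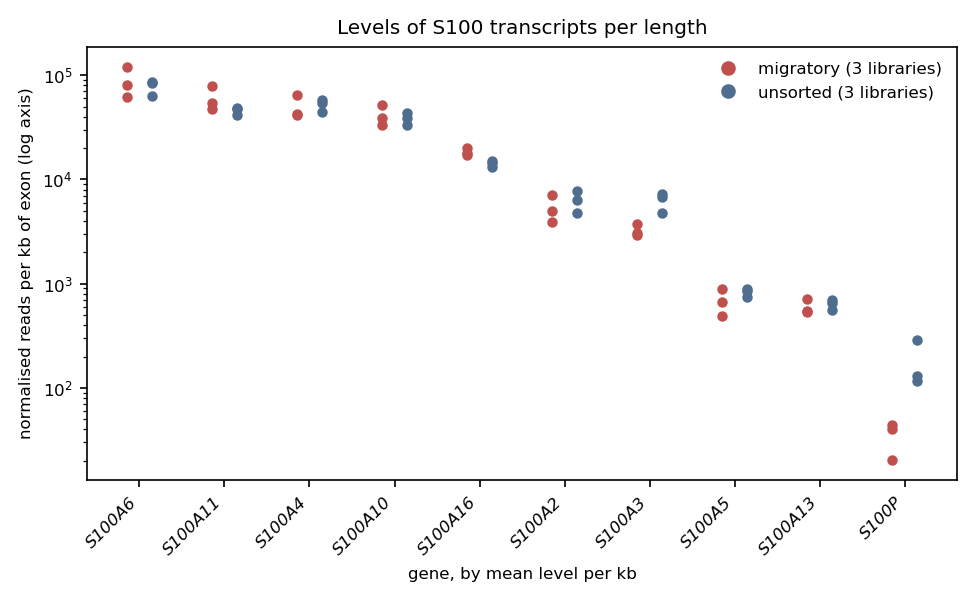
Normalised reads per kilobase of exon (log axis) for the 8 members and 2 relatives, S100A5 and S100P, ordered by mean level, with 1 point per library and migratory libraries (red) left of unsorted ones (blue). S100A6, S100A11, S100A4 and S100A10 lie above every S100A16 point, and S100P is the lowest gene drawn.

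The comparison asked how the transcripts of cells sorted for motility differ from those of their source population. In bulk samples, fewer cells that express a gene and less RNA per cell cannot be told apart. No member of the S100 group passed the test over all genes, limma on log2 of the value + 1 with Benjamini-Hochberg adjustment. That is 0 of 8 members, beside 37 of 15786 tested genes (0.234%), of which 7 were higher (0.0443%) and 30 lower (0.19%). At an unadjusted limma p under 0.05 there were 2 members of 8, 1 in each direction, beside 17.7% of all tested genes (7.7% higher and 10% lower). The edgeR quasi-likelihood test on recovered reads called none, beside 0.133% of all genes (0.0253% higher and 0.108% lower). DESeq2 called 1 member, S100A3, as lower, beside 5.91% of all genes (2.31% higher and 3.6% lower). The groups did not overlap for 2 members, 1 higher and 1 lower in migratory cells, beside 23.8% of all tested genes (11.3% higher and 12.5% lower), so the members' share lay near the background. The 8 members were split 4 to 4 in direction, with a median log2 fold change of -0.01, where all tested genes had a median of -0.03.

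S100A3, a cysteine-rich member that binds zinc and is best known from the cuticle of hair (chromosome 1, 153547329 to 153549372), had lower values in migratory cells, short of the test's threshold. Its normalised reads were 3574, 2934 and 2800 in migratory replicates 1 to 3, against 6957, 4600 and 6535 in unsorted replicates 1 to 3. Every migratory library lay below every unsorted one for this gene. The means were 3103 ± 414 and 6031 ± 1257 (SD, n = 3 each), a log2 fold change of -0.94 (SE 0.22), which is 0.52 of the unsorted level with a 95% interval of 0.37 to 0.73. The limma adjusted p was 0.088, which misses the threshold of 0.05. It ranked 253 of 15786 genes by p. Its log2 fold change lay between -1.13 and -0.83 in all 16 alternative settings, with adjusted p of 0.0031 to 0.33, and DESeq2 (0.0031) and limma with library weights (0.027) were the settings that called it.

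S100A16, a widely expressed member whose EF-hands bind calcium weakly (chromosome 1, 153606886 to 153613145), was the one with separate groups in the other direction. It had 33948, 30513 and 28908 normalised reads in the migratory libraries, against 24300, 22428 and 25714 in the unsorted ones. The lowest migratory value lay above the highest unsorted one. The means were 31123 ± 2574 and 24147 ± 1649, a 1.29-fold difference (95% interval 1.03 to 1.60), with a limma unadjusted p of 0.028 and an adjusted p of 0.23. It had the smallest spread among replicates of the 8 members, with a coefficient of variation of 8.27% in migratory and 6.83% in unsorted cells.

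S100A4, which binds the heavy chain of non-muscle myosin IIA and is the member most often linked to cell motility and metastasis (chromosome 1, 153543613 to 153550136), did not differ beyond its spread. It had 66181, 43103 and 42253 normalised reads in the migratory libraries, against 59856, 44970 and 55992 in the unsorted ones. Migratory replicate 1 was the highest of the 6 libraries and the other migratory libraries were the lowest. The fold was 0.93 (95% interval 0.68 to 1.26) with a limma adjusted p of 0.81, so a difference of up to 1.26-fold upward or to 0.68 of the unsorted level lies within the interval.

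S100A6, which binds the ubiquitin-ligase adaptor CACYBP (chromosome 1, 153534599 to 153536244), had 117188, 59524 and 78631 normalised reads in the migratory libraries, against 81698, 61656 and 83139 in the unsorted ones. The migratory values spanned the whole range of the unsorted ones. The fold was 1.09 (95% interval 0.76 to 1.57, limma adjusted p of 0.80). Without migratory replicate 1 the log2 fold change was -0.13, where it was 0.13 with all libraries.

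S100A10, which does not bind calcium and joins annexin A2 in a complex that holds plasminogen and its activator at the cell surface (chromosome 1, 151982915 to 151994390), had 80258, 51263 and 60073 normalised reads in the migratory libraries, against 66903, 51718 and 60397 in the unsorted ones. Migratory replicates 2 and 3 lay within 1000 reads of unsorted replicates 2 and 3. The fold was 1.06 (95% interval 0.80 to 1.40, limma adjusted p of 0.85), and without migratory replicate 1 the log2 fold change was -0.10, where it was 0.08 with all libraries. S100A10 reads, not scaled for length, amounted to 33.8% to 48.2% of ANXA2 reads in the migratory libraries and to 35.1% to 44.2% in the unsorted ones, and these ranges overlapped.

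S100A11, a partner of annexin A1 that takes part in membrane repair (chromosome 1, 152032506 to 152047907), had 53556, 32342 and 36621 normalised reads in the migratory libraries, against 31880, 28126 and 33028 in the unsorted ones. Migratory replicate 1 was far above the rest and migratory replicate 2 lay below unsorted replicate 3. The fold was 1.29 (95% interval 0.96 to 1.74, limma adjusted p of 0.35). Without migratory replicate 1 the log2 fold change was 0.15, where it was 0.37 with all libraries. A pair of processed pseudogenes of S100A11 is annotated on chromosome 7, and no window of 75 bases from its transcripts matched a transcript of another gene exactly.

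S100A2, a mainly nuclear member that binds p53 (chromosome 1, 153561108 to 153567890), had 11101, 6094 and 7864 normalised reads in the migratory libraries, against 9979, 7534 and 12202 in the unsorted ones. The groups overlapped, with a fold of 0.83 (95% interval 0.56 to 1.24, limma adjusted p of 0.61). S100A13, which assists the export of FGF1 and IL1A by a route that bypasses the secretory pathway (chromosome 1, 153618787 to 153631360), had 1576, 1188 and 1207 in the migratory libraries, against 1455, 1236 and 1558 in the unsorted ones. The groups overlapped here too, and the fold was 0.93 (95% interval 0.66 to 1.32, limma adjusted p of 0.84). Of the windows of 75 bases in S100A13 transcripts, 21.9% also occur in transcripts of the overlapping genes AL162258.1 or S100A1, and the libraries do not mark strand, so its value is less certain than the others.

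**Figure D2:**
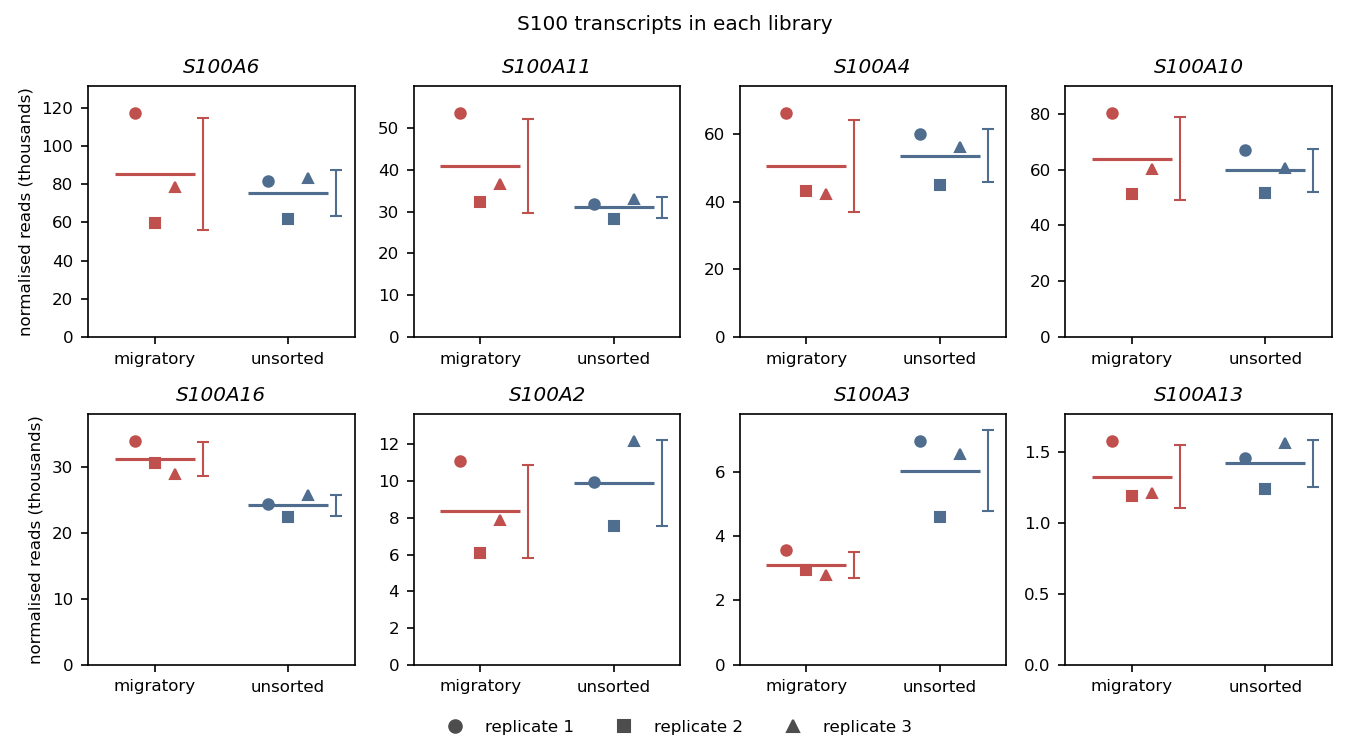
Normalised reads (in units of 1000, each axis starting at 0) of the 8 S100 members in the 3 migratory (red) and 3 unsorted (blue) libraries, with the marker shape giving the replicate, a line at the mean and a bar of 1 SD each way. S100A3 and S100A16 are the members whose groups are separate, and migratory replicate 1 is the highest migratory point in every panel.

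**Figure D3:**
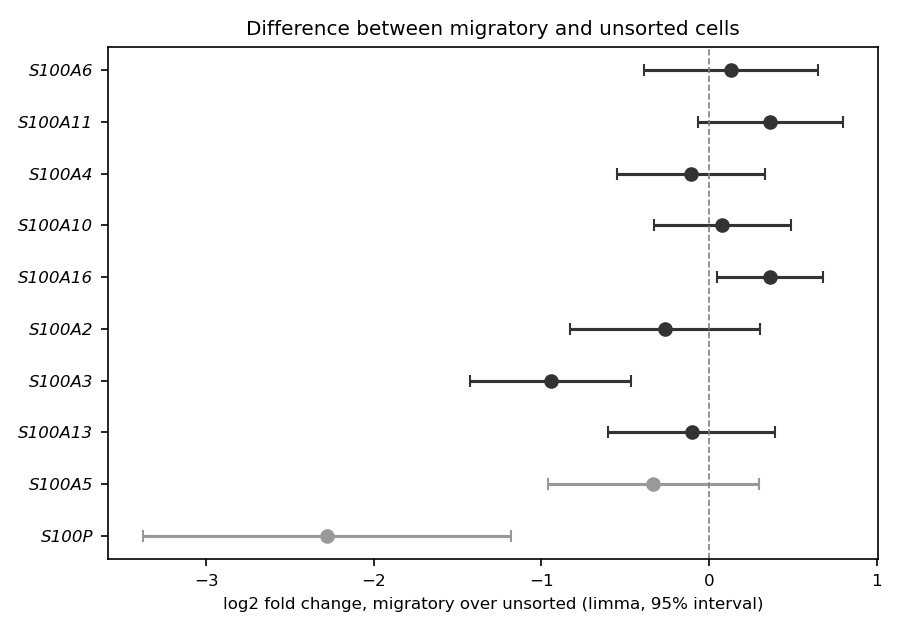
Log2 fold change of migratory over unsorted cells from limma with its 95% interval, for the 8 members (dark) and the relatives S100A5 and S100P (grey). The intervals of S100A3, S100A16 and S100P leave out 0, though none of the 3 passed after adjustment over all genes.

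Much of the spread was shared between members. Migratory replicate 1 held the highest migratory value for 8 of 8 members, and unsorted replicate 2 held the lowest unsorted value for 8 of 8. The share of all tested genes with the same extreme libraries was not counted. As departures from each gene's own mean over the 6 libraries, the median over the 8 members was 0.35, -0.25 and -0.10 (log2) in migratory replicates 1 to 3 and 0.11, -0.24 and 0.11 in unsorted replicates 1 to 3. S100A3 had the opposite sign to these medians in 2 libraries, at -0.26 in migratory replicate 1 and 0.10 in unsorted replicate 2. Within the groups, migratory replicate 1 was still its highest migratory library and unsorted replicate 2 its lowest unsorted one. Without migratory replicate 1, 2 members had higher and 6 had lower values in migratory cells, with a median log2 fold change of -0.18. The same medians over the 244 tested genes with a mean of at least 20000 reads were 0.13, 0.03 and 0.07 in the migratory and -0.01, -0.18 and 0.00 in the unsorted libraries. Over all tested genes the medians lay between 0.01 and 0.05. Summed over the 8 members, S100 reads were 0.952%, 0.587% and 0.657% of all reads in the migratory libraries and 0.756%, 0.613% and 0.745% in the unsorted ones, each with a Wilson 95% half-width of at most 0.0034 percentage points. Migratory replicate 1 was also the library with the largest share of ribosomal protein reads, given above, and unsorted replicate 2 was the most deeply sequenced, and the part of either in the shared spread was not tested.

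**Figure D4:**
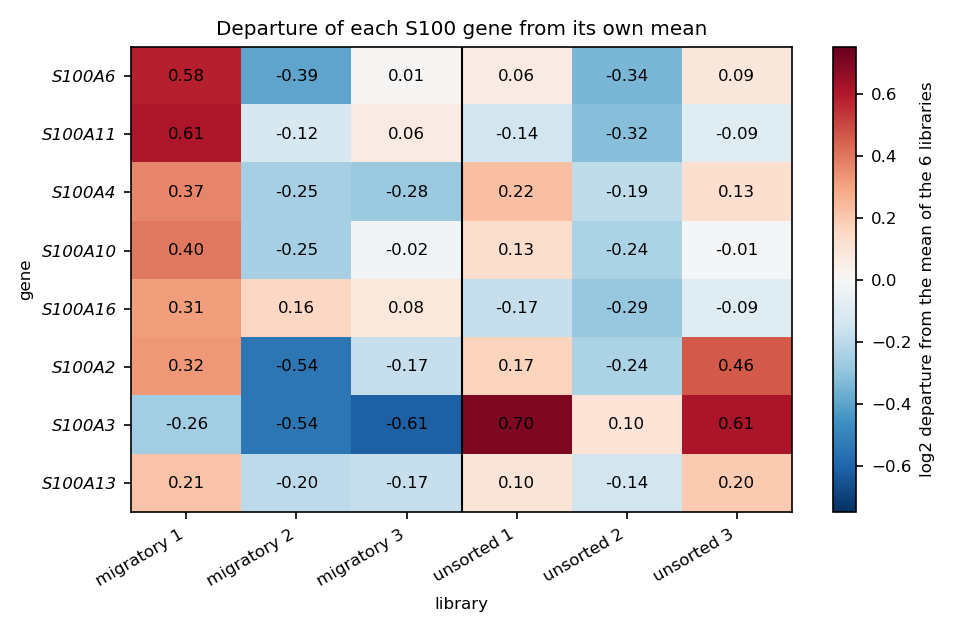
Departure of each member from its own mean over the 6 libraries, in log2 units, with genes in rows by level and libraries in columns, migratory left of the line. Migratory replicate 1 is above the mean for 7 of 8 members, and S100A3 is the row that is below its mean in every migratory library and above it in every unsorted one.

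Since much of the spread between libraries was shared, each member was also expressed as a share of the summed reads of the 8. S100A3 made up 0.973%, 1.29% and 1.08% of this pool in the migratory libraries, against 2.46%, 2.07% and 2.35% in the unsorted ones. S100A11 made up 14.6%, 14.3% and 14.2% in migratory cells, against 11.3%, 12.7% and 11.9% in unsorted cells, and so was separate between the groups as a share although its reads overlapped. S100A4 made up 18.0%, 19.0% and 16.4% in the migratory libraries, against 21.1%, 20.2% and 20.1% in the unsorted ones. S100A2 made up 3.02%, 2.68% and 3.04%, against 3.53%, 3.39% and 4.38%. In all, 4 of 8 members had shares that did not overlap, 1 higher and 3 lower in migratory cells, where dividing every tested gene by the same sum gave 19.0% without overlap, 5.58% higher and 13.4% lower. The members are parts of this sum and the other genes are not, so that background is unlike the members and no excess is read from it. The shares of S100A6, S100A10, S100A13 and S100A16 overlapped between groups. The Wilson 95% half-widths of these shares were at most 0.22 percentage points, and shares of 1 pool are not independent of each other.

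**Figure D5:**
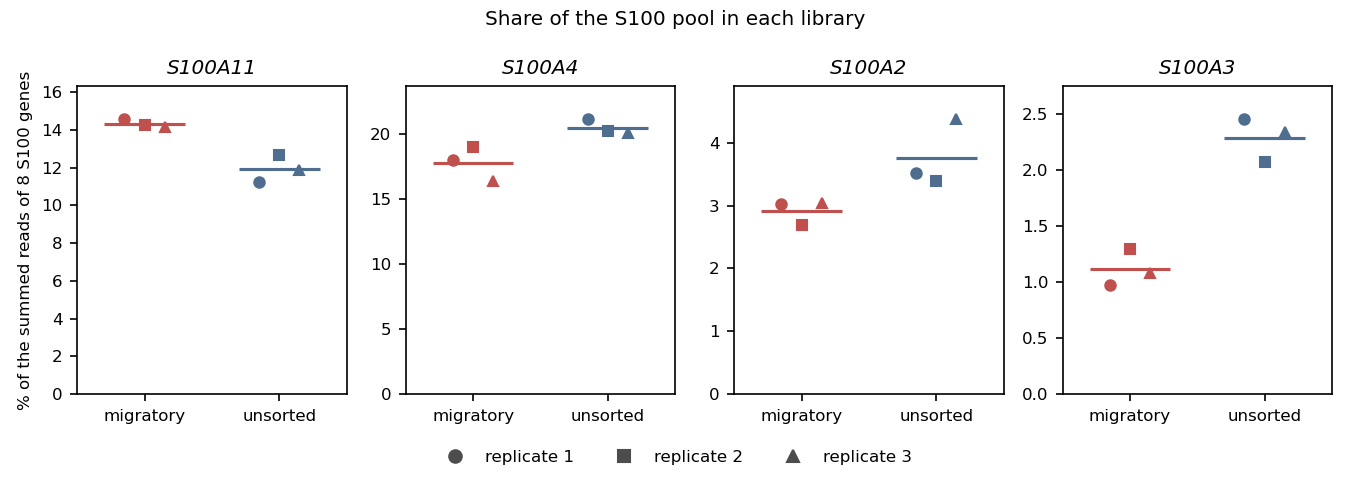
Share of the summed reads of the 8 S100 genes (percent, axes starting at 0) for the 4 members whose shares did not overlap, by library, with a line at the group mean and marker shape for the replicate. S100A11 is higher in the 3 migratory libraries, and S100A4, S100A2 and S100A3 are lower.

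S100A3 and S100A4 are neighbours on the same strand, and the interval of S100A3 lies wholly inside that of S100A4, with no shared exon base. As reads not scaled for length, S100A3 amounted to 5.40%, 6.81% and 6.63% of S100A4 in the migratory libraries, against 11.6%, 10.2% and 11.7% in the unsorted ones. The ratio was separate between the groups and changed little within them, at 6.28% ± 0.76 in migratory and 11.2% ± 0.82 in unsorted cells (SD, n = 3 each). S100A3 was likewise 3.05%, 4.93% and 3.56% of S100A6 in migratory cells, against 8.52%, 7.46% and 7.86% in unsorted cells. These ratios were chosen after the values were seen and show unequal differences between the paired genes, without saying which gene changed.

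Genes with a profile like that of S100A3 were sought by the root mean square difference between log2 profiles over the 6 libraries, each centred on its own mean, among 12380 genes with a mean of at least 50. The nearest was TRPT1, a tRNA phosphotransferase, at a difference of 0.06, with 1320 ± 249 reads in migratory and 2657 ± 583 in unsorted cells. ETFB, an electron transfer flavoprotein subunit, ANKZF1, IFITM1, an interferon-induced membrane protein, and HIST1H2BD followed at 0.08 to 0.09. None of the 5 lies on chromosome 1, and the nearest S100 member to S100A3 was S100A2, at rank 1378. For S100A6, the member with the highest level per kilobase, the nearest were COX7A2 and NDUFB4, subunits of the respiratory chain, then C14orf2, C2orf68 and RPA3, at 0.03 to 0.04. S100A10 was the closest member to S100A6, at rank 80 and a difference of 0.12, followed by S100A11 at rank 229 and S100A4 at rank 371.

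Among the other S100 and S100-fused genes, 6 of 17 listed were used, and 0 of 6 passed limma over all genes, with 3 higher and 3 lower values and a median log2 fold change of -0.05. S100P, a member first found in placenta that can act through RAGE (chromosome 4, 6693069 to 6697170), had 51.8, 25.8 and 55.9 normalised reads in the migratory libraries, against 148, 166 and 369 in the unsorted ones. Every migratory library lay below every unsorted one. The means were 44.5 ± 16.3 and 228 ± 122, a log2 fold change of -2.28 (SE 0.49) with a limma adjusted p of 0.080, so it did not pass either. As for S100A3, DESeq2 (adjusted p of 0.0013) and limma with library weights (0.035) called it, and its adjusted p lay between 0.0013 and 0.31 over the 16 alternatives. S100A5 had 691, 381 and 519 in the migratory libraries, against 698, 585 and 667 in the unsorted ones, with a limma adjusted p of 0.56. S100Z averaged 16.2 ± 11.8 in migratory and 8.10 ± 7.13 in unsorted cells, and S100G 14.5 ± 7.89 and 29.6 ± 19.3. S100A14 had 21.0, 8.59 and 9.12 in the migratory libraries, against 20.6, 1.95 and 19.6 in the unsorted ones, with a lower mean but a fitted log2 fold change of 0.23 in migratory cells. These 3 genes were close to the lowest levels tested. FLG, which encodes the skin barrier protein filaggrin, averaged 203 ± 88.2 and 153 ± 48.6.

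Of 20 listed partners of S100 proteins, 14 had higher and 6 lower values in migratory cells, with a median log2 fold change of 0.16, and none passed limma over all genes. LGALS3BP, a secreted glycoprotein that binds galectins, had the smallest p. It stood at 32019 ± 6227 in migratory and 57728 ± 6951 in unsorted cells (log2 fold change -0.86, limma adjusted p of 0.076). The co-chaperone STIP1 averaged 25300 ± 3270 in migratory and 15158 ± 1248 in unsorted cells (0.73, limma adjusted p of 0.081). DESeq2 called both LGALS3BP (adjusted p of 0.0059) and STIP1 (0.0056), as did limma with library weights (0.028 and 0.039), and over the 16 alternatives their adjusted p reached 0.30 and 0.29. CACYBP, the partner of S100A6, averaged 33365 ± 3415 in migratory and 23407 ± 4624 in unsorted cells (0.53, limma adjusted p of 0.19). The 4 annexins of the list overlapped between the groups. ANXA2 averaged 162302 ± 18075 in migratory and 148377 ± 2662 in unsorted cells and ANXA1 63868 ± 3762 and 60549 ± 6673, while ANXA6 averaged 6723 ± 2901 and 4570 ± 2005 and ANXA11 5204 ± 1688 and 6332 ± 1245. The S100A4 target MYH9 averaged 7272 ± 2939 and 6368 ± 1898.

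Receptors through which extracellular S100 proteins are known to act were split 4 to 4 over the 8 of 11 listed that were used, with a median of -0.04 and no call. TLR4, a receptor for S100A8 and S100A9, averaged 1258 ± 444 in migratory and 711 ± 527 in unsorted cells (limma adjusted p of 0.29). EGFR averaged 4076 ± 1105 and 2655 ± 554 (0.26), and GPR35 16.8 ± 12.1 and 53.1 ± 25.9 (0.27). BSG, also called EMMPRIN, averaged 66804 ± 9350 in migratory and 85827 ± 15793 in unsorted cells.

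Around S100A10, 9 listed genes of plasmin generation were all used, 6 with higher and 3 with lower values in migratory cells. Their median log2 fold change was 0.01, and 1 of the 9 passed limma over all genes, as higher. That gene is not reported here. SERPINB2, an inhibitor of the plasminogen activators, had 186, 200.4 and 106 normalised reads in the migratory libraries, against 30.8, 27.8 and 31.8 in the unsorted ones. Every migratory library lay above every unsorted one, and the limma adjusted p was 0.061. SERPINE2, a related inhibitor, had 2746, 6095 and 5725 in the migratory libraries, against 10488, 9703 and 16176 in the unsorted ones. Every migratory library lay below every unsorted one, and the limma adjusted p was 0.094. Neither gene passed the main test, but DESeq2 called both (adjusted p of 9.9e-05 for SERPINB2 and 0.0036 for SERPINE2), as did limma with library weights (0.030 and 0.039). SERPINB2 also passed limma with a pseudocount of 10 (0.047), and over the 16 alternatives the adjusted p reached 0.23 for SERPINB2 and 0.33 for SERPINE2. The activators PLAT and PLAU averaged 62811 ± 21258 and 24650 ± 6649 in migratory cells, against 73875 ± 4383 and 20602 ± 3820 in unsorted cells, and the receptor PLAUR 10807 ± 1190 and 11372 ± 2053, without passing. S100A10 itself overlapped between the groups, as given above.

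Markers of other cell types were read beside S100A3 and S100P. Of 13 myeloid markers 3 were used, summing to 360 to 641 reads in migratory and 776 to 974 in unsorted cells, with CD14 at 107, 64.4 and 25.1 in migratory against 411, 375 and 283 in unsorted libraries. Of 8 fibroblast markers 4 were used, all 4 with lower values, summing to 537 to 1707 in migratory and 1936 to 3611 in unsorted cells. Of 10 keratinocyte markers 2 were used, 1 with higher and 1 with lower values in migratory cells. They summed to 3838 to 6728 in migratory and 4150 to 5677 in unsorted cells. KRT10, which made up most of these sums, averaged 5407 ± 1461 in migratory and 4983 ± 918 in unsorted cells. KRT14 had no read in all 3 migratory libraries, against 34.3, 208 and 0 in the unsorted ones. Of 7 endothelial markers 4 were used, summing to 640 to 987 in migratory and 1319 to 1880 in unsorted cells. Of the 3 that were tested, 1 had higher and 2 had lower values in migratory cells. PECAM1, which made up most of these sums, averaged 783 ± 197 in migratory and 1565 ± 316 in unsorted cells. KDR went the other way, at 53.8 ± 19.9 and 27.8 ± 24.0. None of 5 erythroid markers was used. The part of these markers in the S100A3 and S100P values was not tested.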

How the data were processed

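Each sample of 1000 cells was sequenced after SMART-seq cDNA amplification and Nextera XT tagmentation, per the labels' protocols, a chemistry that does not mark strand. The authors deposited 1 signal per gene and library, reads divided by a size factor. HISAT2, HTSeq and DESeq2 were used with hg38 and GRCh38.p7, per the submitters' processing notes; the role and settings of each, the annotation and the gene filter are not given in these sources. Low values were whole multiples of 1 step per library, so whole reads were recovered for 100% of values (tolerance 0.01 read). No sample column was left unused.

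The main test was limma 3.58.1 (R 4.3.3, trended prior) on log2(value + 1), which understates changes of low genes, over 15786 genes with a mean of at least 10 and with Benjamini-Hochberg adjustment over all of them, two-sided, threshold 0.05. edgeR 4.0.16 and DESeq2 1.42.0 on recovered reads were alternatives, and DESeq2 left 3 adjusted p-values as NA. The fits were tested on simulated data, and the outcome is not reported here. Lengths, intervals and exon overlaps came from GENCODE release 29, which held 85.9% of the symbols and may not be the annotation used for counting.

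The members, lists and tests were chosen with earlier results of these data known. Genes were named by a rule: all members, list genes past the test plus the 3 with the smallest p per list, and the 5 nearest profiles of the member with the smallest p and of the most abundant per kilobase. Others named were chosen after their values were seen, and some list genes that entered the tests and counts are not reported here.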

Additional observations from a re-analysis of the deposited data

How the results depend on the processing

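The number of genes called over the whole table depended on the setting. It was 37 in the main test, 21 with edgeR and TMM scaling, 23 with edgeR and DESeq2 size factors, 933 with DESeq2, 81 after upper-quartile rescaling, 19 and 97 with pseudocounts of 0.1 and 10, 78 with a filter at a mean of 50, 507 with library weights and 33 without a filter. Leaving out 1 library gave 1 to 44 calls. The S100 members called were 0, but 1, S100A3, with DESeq2 and 1 with library weights, and 0 in each of the 6 fits that left out a library. The S100 median log2 fold change lay between -0.18 and 0.11. S100A10 changed sign with library weights (-0.057) and within a range of -0.10 to 0.23 when a library was left out, S100A6 with library weights (-0.084) and within -0.13 to 0.36, and S100A4 within -0.32 to 0.0052. For S100A10 and S100A6 the libraries that turned the sign were migratory replicate 1 and unsorted replicate 2 (-0.019 and -0.0098 without the second), and for S100A4 migratory replicate 3. The cause was not tested. S100A3, S100A11, S100A13, S100A16, S100A2, S100A5 and S100P kept their direction in all 16 settings. Of the 5 genes nearest to S100A3, 1 to 3 were shared when a library was left out, and 2 to 4 of those nearest to S100A6, in checks added after seeing the data.

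With the replicate number as a block, limma called 114 genes and 0 members (S100A3 adjusted p of 0.057), and SERPINE2 passed (0.0498). Same-numbered libraries deviated together with correlations of 0.12, 0.11 and 0.04, and migratory replicate 3 resembled unsorted replicate 2 more than its own number, so the numbers were not taken as pairs. Precision is limited by 3 libraries a group rather than by depth for the members, which had at least 830 reads each.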

Other observations

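The other genes of EF-hand proteins showed no common direction beside the S100 genes. Of 28 listed, 27 were used, with 13 higher and 14 lower values in migratory cells, a median log2 fold change of -0.0027 and 0 calls in limma over all genes. CALM2, a calmodulin gene, averaged 140331 ± 29336 in migratory and 125317 ± 39677 in unsorted cells. The 3 with the smallest p were NUCB1, a nucleobindin of the Golgi, at 1833 ± 384 and 2701 ± 310 (limma adjusted p of 0.23), PDCD6 at 7325 ± 1278 and 9956 ± 2419 (0.34), and SDF4 at 5522 ± 2776 and 8134 ± 996 (0.35).

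The genes around the S100 cluster on chromosome 1 were also mixed. Of 28 in the window from 151482915 to 154131360, which reaches 500 kb beyond the outermost S100A genes used, 13 had higher and 15 lower values, with a median of -0.06 and 0 calls. S100A5, S100A14 and FLG are among the 28. Among those with the smallest p, CREB3L4 averaged 74.9 ± 44.6 in migratory and 239 ± 91.2 in unsorted cells (limma adjusted p of 0.14, DESeq2 adjusted p of 0.048), and SNAPIN 2812 ± 560 and 4109 ± 805 (0.26).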
